A study of Mus musculus with 14 samples.

Results

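The transcripts described are those of 10 core genes of the circadian clock, Arntl, Clock, Per1, Per2, Per3, Cry1, Cry2, Nr1d1, Nr1d2 and Dbp, in mouse striatum. They were taken as every probe set of the array whose platform symbol is 1 of these names, which gave 16 probe sets of 22626 tested and 10 genes of 12393 with a named probe set. A probe set is the group of short probes that reads 1 transcript. Clock, Per2, Nr1d2 and Dbp had 2 probe sets each and Per3 had 3. Probe sets annotated to several gene symbols, 691 on the array, were not taken, so none of the 16 is of that kind. Of the 16 probe sets, 9 were brighter than the median of all probe sets, and the only probe set of Cry1 had a mean log2 signal of 4.51.

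The arrays compared striatum of R6/2 mice with striatum of wild-type mice at 6 weeks of age, both on a CBAxC57BL/6 background. R6/2 mice carry exon 1 of human HTT with a long CAG repeat, driven by the human HTT promoter and therefore active in many cell types, and are a model of Huntington disease. Every animal, of either genotype, had been given saline between 30 and 60 minutes before it was killed, as a control in 1 of 2 drug studies. The start of the sample titles divides the 14 arrays into a cohort M.C, with 4 R6/2 arrays (replicates 1 to 4) and 4 wild-type arrays (replicates 1 to 4), and a cohort Mith, with 3 R6/2 arrays (replicates 5 to 7) and 3 wild-type arrays (replicates 5 to 7). The hour of the day at which tissue was taken is not in the labels used here. Nothing in the labels states that arrays came from different animals. The p-values hence measure only the spread between arrays, whose small number sets the precision.

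The clock is a feedback loop of transcription that runs in most cells with a period of about a day. ARNTL (also called BMAL1) and CLOCK bind E-box sequences together and activate the Per, Cry, Nr1d and Dbp genes, the PER and CRY proteins then repress that pair, and the NR1D proteins repress Arntl, so that Arntl transcripts peak when those of Nr1d1 and Dbp are low. DBP is an output factor that activates genes with D-box sequences, the Per genes among them. Per1 is in addition an early response gene, induced within the hour by neuronal activity, by cyclic AMP and by glucocorticoids. In striatum the clock genes cycle over the day, and dopamine signalling is known to shape the rhythm of Per2.

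Sequence before an annotated start of transcription is shown for Per1, Dbp and Per3, since Per1 and Dbp carry the genotype differences given below and Per3 holds D-boxes, the sequence that DBP binds. The sequences are RefSeq's for build GRCm38.p6, written 5′ to 3′ on the strand of the gene, with a full E-box (CACGTG) or a D-box (TTATGTAA) in capitals. The Per1 sequence is the 250 bases at chr11:69098699-69098948 on the plus strand, which lie within the annotated gene (chr11:69095108-69109965), whose span begins further upstream. For Dbp (chr7:45705100-45710203) and Per3 (chr4:150997018-151044707) the stretch upstream of the annotated gene is shown, at chr7:45704997-45705099 on the plus strand and chr4:151044708-151044915 on the minus strand.
Per1: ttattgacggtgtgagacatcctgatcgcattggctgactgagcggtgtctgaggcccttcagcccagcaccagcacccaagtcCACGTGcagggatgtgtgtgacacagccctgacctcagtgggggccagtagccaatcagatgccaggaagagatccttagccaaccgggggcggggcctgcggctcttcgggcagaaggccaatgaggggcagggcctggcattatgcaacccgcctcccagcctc
Dbp: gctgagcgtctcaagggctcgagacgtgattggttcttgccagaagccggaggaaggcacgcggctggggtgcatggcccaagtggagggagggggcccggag
Per3: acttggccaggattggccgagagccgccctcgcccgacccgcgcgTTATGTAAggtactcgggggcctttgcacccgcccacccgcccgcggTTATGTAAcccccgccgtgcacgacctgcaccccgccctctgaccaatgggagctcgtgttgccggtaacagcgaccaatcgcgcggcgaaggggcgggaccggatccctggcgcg

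The Per1 sequence holds 1 full E-box, which begins 166 bases before the start. The Per3 sequence holds 2 D-boxes, which begin 205 and 158 bases before the annotated start, and the Dbp sequence holds none of the motifs searched. The Per3 distances count from the end of the window searched, chr4:151044666-151044915, which reaches into the annotated gene beyond the stretch shown. The search covered the 250 bases before each start on both strands for 9 of the 10 genes at 13 annotated starts, and Per2 was not in the promoter table. CACGTG was also present in Cry1, 60 bases before the start, and so in 2 of the 9 genes, against 6.02% of 32851 mouse promoters of the same length. The shares of all promoters count each start by itself, while a gene counts here if any of its starts holds the motif. Per1 has another annotated start whose window holds none of the motifs. The variant E-box CACGTT was present in Cry1, Cry2 and Nr1d1, against 3.85% of all promoters. The D-box TTATGTAA was present in Per3 only among the 9 genes and in 0.819% of all promoters. The NR1D binding core TAGGTCA (2.23% of all promoters) and the cyclic AMP response element TGACGTCA (1.55%) were found in none of the 9 genes within these windows. These matches describe the letters of the windows and were not set against the expression values.

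Measures of RNA quality and of some cell types moved with genotype, and their part in the results below was not tested except where a value is given. The Actb 3′ minus 5′ difference, which grows as RNA degrades, was 0.608 ± 0.181 in R6/2 and 0.373 ± 0.143 in wild-type on the log2 scale (SD, n = 7 each), with 0.577 in R6/2 and 0.324 in wild-type for M.C and 0.649 in R6/2 and 0.439 in wild-type for Mith. R6/2 replicate 4 correlated least with the other arrays of its cohort, at a mean Spearman correlation of 0.981. Of 13 measured marker genes of striatal projection neurons 12 were brighter than the median probe set, and their mean deviation ran from -0.51 to -0.10 on the R6/2 arrays and from -0.24 to 0.53 on the wild-type arrays. Here and below a probe set is called where its p in limma, with genotype and cohort as terms and adjusted by Benjamini-Hochberg across the 22626 probe sets, is under 0.05. Of the striatal genes 8 were called lower in R6/2, with a median log2 change of -0.61, and of 9 oligodendrocyte genes 6 were called lower, with a median of -0.35, where 2.53% of all genes were called and the median of all genes was 0.01. Of 9 astrocyte genes 2 were called lower in M.C (2.96% of all genes) and 0 in Mith or over both cohorts. The list's mean deviation in M.C ran from -0.30 to -0.09 on the R6/2 arrays and from 0.03 to 0.17 on the wild-type arrays. Of 10 thalamic genes 1, Ramp3, was called lower in Mith (0.0161% of all genes), where the list's median was -0.61. The Gapdh 3′ minus 5′ difference was 0.337 in R6/2 and 0.0531 in wild-type for M.C, and 0.0578 in R6/2 and -0.00952 in wild-type for Mith. In bulk tissue fewer cells of a type and less RNA per cell cannot be told apart.

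The genotype comparison asked whether the transgene changes clock transcripts in young striatum. Per1 and Dbp were lower in R6/2, at 84.9% and 76.6% of the wild-type signal, and the other 8 genes did not pass the test over both cohorts. Of the 16 probe sets 2 were called, both lower, where 2.55% of all probe sets were called in either direction, 2.19% lower and 0.362% higher. Of the 16 values 13 lay below 0 (81.2%, against 45.2% of all probe sets), and their median log2 change was -0.09 against 0.01 over all probe sets. At an unadjusted p under 0.05 there were 5 of the 16, where all probe sets gave 15.2%.

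Per1 encodes a repressor of the ARNTL and CLOCK pair. In M.C its log2 signal was 8.79, 8.51, 8.78 and 8.80 in R6/2, against 8.97, 9.01, 8.90 and 8.98 in wild-type. In Mith it was 8.76, 8.62 and 8.53 in R6/2, against 8.84, 8.86 and 8.91 in wild-type. Every R6/2 array lay below every wild-type array over both cohorts, which held for Per1 alone among the 16 probe sets and for 0.389% of all probe sets in this direction. Separation downward both within M.C and within Mith, as for Per1, was seen for 1.05% of all probe sets. The change was -0.24 ± 0.06 (SE, adjusted p = 0.0324), with means of 8.68 ± 0.13 in R6/2 and 8.92 ± 0.06 in wild-type (SD, n = 7 each). It was -0.24 ± 0.08 in M.C (adjusted p = 0.103) and -0.23 ± 0.09 in Mith (adjusted p = 0.387), neither called within its cohort.

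The Per1 call is close to the threshold. It was lost when R6/2 replicate 1, 2, 6 or 7 or wild-type replicate 1, 2, 3, 4 or 7 was left out, with changes between -0.25 and -0.20 and adjusted p between 0.0512 and 0.0731. With the Actb difference as a covariate the change was -0.14 ± 0.06 (adjusted p = 0.412), a move of over 1.5 times, and the part of RNA quality in the Per1 result was not tested further. Without the cohort term the adjusted p was 0.111, with the values as deposited 0.0575 and after quantile normalization 0.114. R6/2 replicate 2, the lowest Per1 value, also had the largest Actb difference of all arrays, 0.852, and without it the M.C change was -0.17 ± 0.07. Per1 also belongs to a list of 12 glucocorticoid-responsive genes, of which it was the only 1 called over both cohorts, where 2.53% of all genes were. That list's median was -0.03 against 0.01 over all genes. Of 15 immediate early genes such as Fos and Egr1, a list without Per1, 6 were lower and 0 higher in R6/2, with a median of -0.18 against 0.01 over all genes, where 2.53% of all genes were called. Their mean deviation ran from -0.23 to -0.09 on the R6/2 arrays and from 0.03 to 0.23 on the wild-type arrays, and their part in the Per1 result was not tested.

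Dbp encodes a transcription factor that carries the clock's rhythm to its target genes. On probe set 1418174_at, whose type is not marked as cross-hybridising, the M.C log2 signals were 7.76, 7.89, 8.10 and 7.67 in R6/2, against 8.54, 8.29, 8.55 and 8.24 in wild-type. In Mith they were 8.22, 8.27 and 7.98 in R6/2, against 8.13, 8.44 and 8.38 in wild-type. The genotypes were apart in M.C and overlapped in Mith, where only wild-type replicate 5, at 8.13, lay below any R6/2 array. Over both cohorts the change was -0.38 ± 0.09 (SE, adjusted p = 0.0359), with means of 7.98 ± 0.23 in R6/2 and 8.37 ± 0.16 in wild-type (SD, n = 7 each).

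The other Dbp probe set, 1438211_s_at, is of a type whose probes can match related transcripts. In M.C it read 8.27, 8.16, 8.68 and 7.18 in R6/2, against 9.15, 8.85, 9.09 and 8.94 in wild-type. In Mith it read 9.14, 9.16 and 9.01 in R6/2, against 8.83, 9.28 and 9.45 in wild-type. Its change over both cohorts was -0.57 ± 0.19 (adjusted p = 0.139), larger and with a wider spread than that of the other probe set, so that Dbp is called or not called over both cohorts according to the probe set that stands for it. R6/2 replicate 4, the array least like its cohort, gave the lowest value on both probe sets, and without it the changes were -0.34 ± 0.09 on 1418174_at (adjusted p = 0.0451) and -0.38 ± 0.12 on 1438211_s_at (adjusted p = 0.0927).

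The Dbp call over both cohorts on 1418174_at was lost when R6/2 replicate 1, 2 or 7 or wild-type replicate 1, 2, 3, 4, 6 or 7 was left out, with changes between -0.40 and -0.34 and adjusted p between 0.0552 and 0.0885. With the Actb difference as a covariate it was -0.38 ± 0.12 (adjusted p = 0.249), the same size with a wider error. Without the cohort term the adjusted p was 0.120, and with the mean of both probe sets the change was -0.48 ± 0.14 (adjusted p = 0.0750). Wild-type replicate 5 was singled out for its low Dbp value in Mith, so a larger change without it was fixed in advance. Leaving it out gave -0.44 ± 0.09 on 1418174_at (adjusted p = 0.00987) and -0.68 ± 0.18 on 1438211_s_at (adjusted p = 0.0493). In that fit 3.88% of all probe sets were called. In Mith alone 1418174_at was then at -0.25 ± 0.13 (adjusted p = 0.494). That array had the lowest mean deviation of striatal markers among wild-type arrays, -0.24, and its part was not tested.

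**Figure D1:**
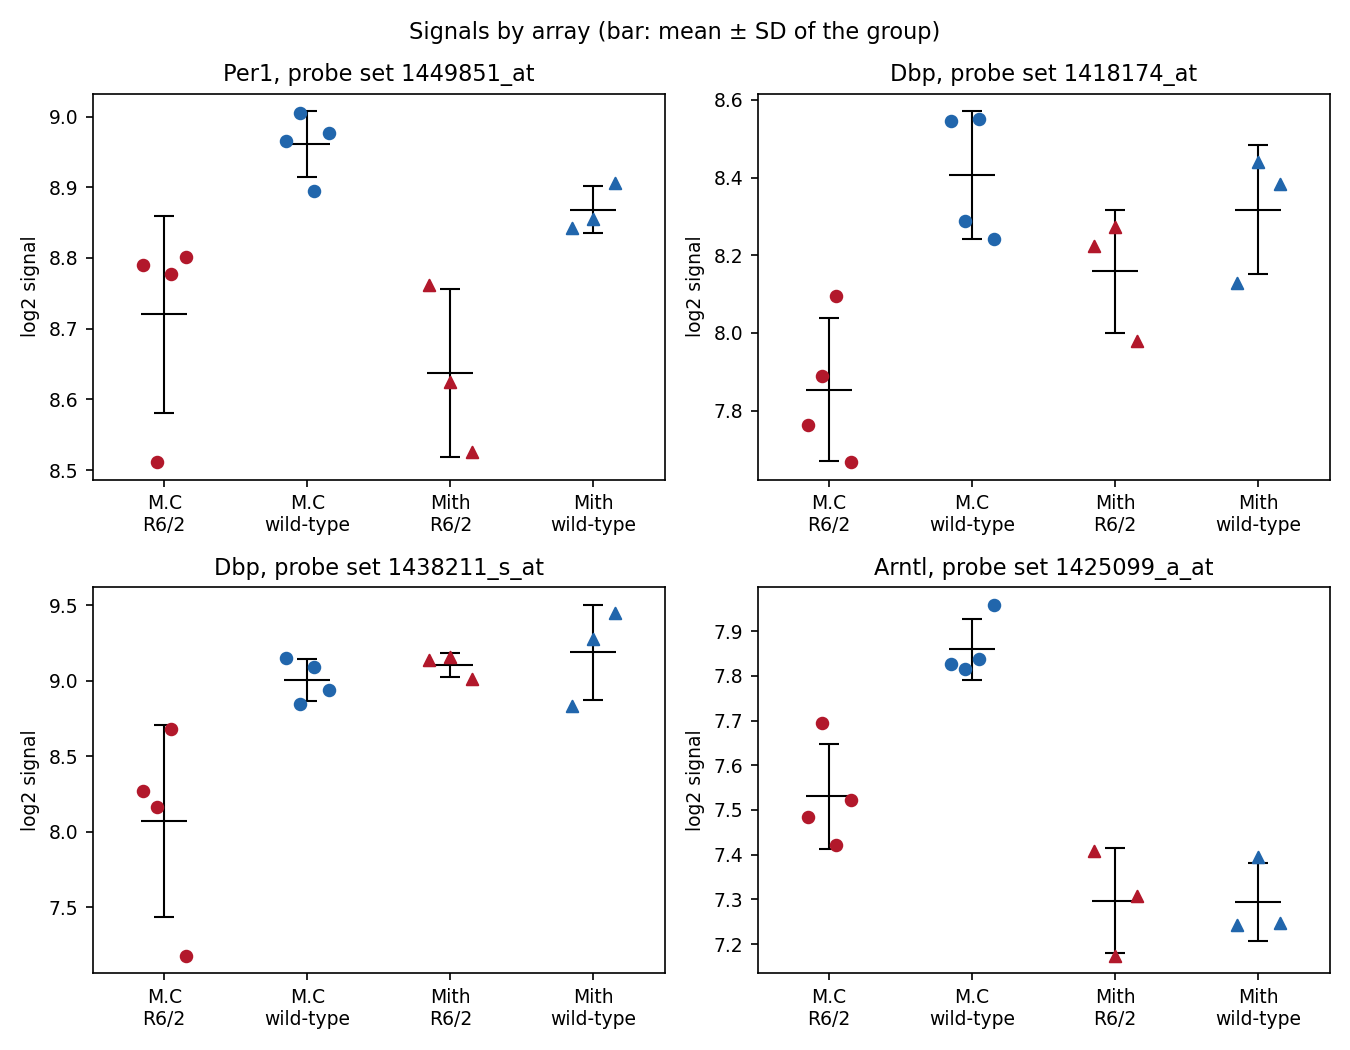
Median-centred log2 signals of Per1, of both Dbp probe sets and of Arntl on each array. The vertical axis of each panel is the log2 signal, each point is 1 array (circles M.C, triangles Mith, red R6/2, blue wild-type), and bars give the mean ± SD of 4 (M.C) or 3 (Mith) arrays. Per1 of R6/2 lies below wild-type in both cohorts, while Dbp and Arntl of R6/2 lie below wild-type without overlap in M.C only.

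Among the activators, Arntl had log2 signals of 7.48, 7.70, 7.42 and 7.52 in R6/2 of M.C, against 7.83, 7.81, 7.84 and 7.96 in wild-type of M.C. In Mith it had 7.41, 7.17 and 7.31 in R6/2, against 7.24, 7.39 and 7.25 in wild-type. The genotypes were apart in M.C and mixed in Mith. Over both cohorts the change was -0.19 ± 0.07 (adjusted p = 0.182). Clock, its partner, differed by 0.08 on 1418660_at (95% interval -0.01 to 0.18, adjusted p = 0.402) and by 0.00 on 1418659_at (95% interval -0.20 to 0.21, adjusted p = 0.997).

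The other repressors of the PER and CRY families gave changes nearer 0. Per2, whose protein is the partner of PER1, had log2 signals from 6.59 to 7.16 in R6/2 and from 6.49 to 7.11 in wild-type on 1417603_at, with a change of -0.04 (95% interval -0.18 to 0.10). On its other probe set the change was 0.08 (95% interval -0.09 to 0.25). Per3, a family member that is less needed for the rhythm itself, gave -0.13 on its brightest probe set, 1421087_at (95% interval -0.28 to 0.02). Its other probe sets gave -0.02 (95% interval -0.19 to 0.16) and -0.01 (95% interval -0.18 to 0.16). Cry1 was at -0.02 (95% interval -0.14 to 0.09), on the dimmest probe set of the 16. Cry2 was at -0.15 (95% interval -0.34 to 0.05), with R6/2 from 7.71 to 8.44 and wild-type from 8.03 to 8.44, and the lowest value was that of R6/2 replicate 4. Without that array the Cry2 change was -0.06 ± 0.06.

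Nr1d1 and Nr1d2 encode the nuclear receptors REV-ERB alpha and beta, which repress Arntl. Nr1d1 had log2 signals with a median of 8.29 in R6/2 (8.03 to 8.56) and of 8.44 in wild-type (8.32 to 8.67), and its change was -0.16 ± 0.07 (adjusted p = 0.296). Nr1d2 gave -0.05 ± 0.12 on 1416958_at (adjusted p = 0.900) and -0.15 ± 0.07 on 1416959_at (adjusted p = 0.331). On the first of these R6/2 replicate 4 read 7.91, below all other arrays, and without it the change was 0.06 ± 0.08. A p that misses the threshold does not show that these levels were alike, and the intervals of Arntl, Per3, Cry2, Nr1d1 and Nr1d2 reach changes of the size seen for Per1.

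**Figure D2:**
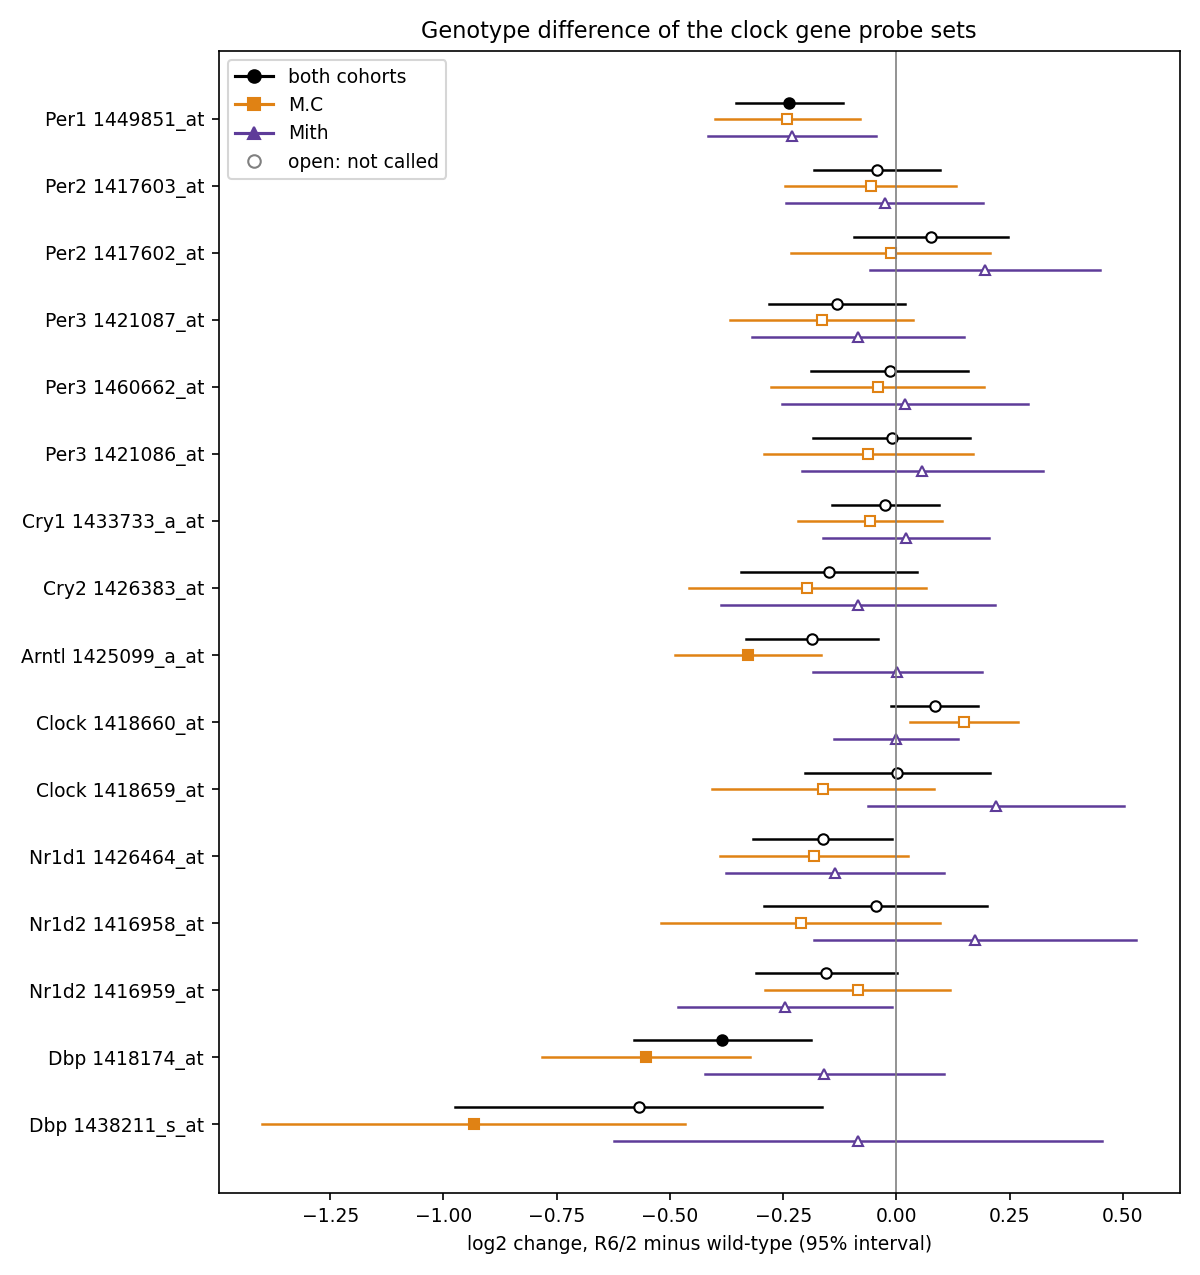
Log2 change of each of the 16 probe sets, R6/2 minus wild-type, over both cohorts (circles), in M.C (squares) and in Mith (triangles). Bars are 95% intervals and filled symbols passed the adjusted threshold: Per1 and Dbp 1418174_at over both cohorts, and both Dbp probe sets and Arntl in M.C.

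Each cohort was also tested by itself. In M.C, Dbp was lower on both probe sets and Arntl was lower, so that 3 of the 16 probe sets were called, where 3.21% of all probe sets were and 2.94% were lower. Dbp was at 68.2% of wild-type on 1418174_at (-0.55 ± 0.11, adjusted p = 0.00905) and at 52.4% on 1438211_s_at (-0.93 ± 0.22, adjusted p = 0.0284). Arntl was at 79.6% (-0.33 ± 0.08, adjusted p = 0.0257). On 4 probe sets every R6/2 array of M.C lay below every wild-type array, those of Per1, Arntl and Dbp, where 6.33% of all probe sets did. On 1 probe set, Clock 1418660_at, every R6/2 array lay above, where 4.84% did. That Clock probe set read 8.14, 8.15, 8.20 and 8.17 in R6/2, against 8.02, 7.97, 8.04 and 8.05 in wild-type, a change of 0.15 ± 0.06 (adjusted p = 0.182) that did not pass. The other Clock probe set, 1418659_at, had the opposite sign in M.C, at -0.16 ± 0.12 (adjusted p = 0.521).

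The Dbp call on 1418174_at in M.C was kept in all 14 fits with 1 array left out, with changes from -0.63 to -0.49, and with the Actb covariate (-0.56 ± 0.13, adjusted p = 0.0468). The call on 1438211_s_at was lost without R6/2 replicate 1 or wild-type replicate 1, 3 or 4, with adjusted p from 0.0532 to 0.0805, and without R6/2 replicate 4 the change was -0.64 ± 0.14 (adjusted p = 0.0174). The Arntl call in M.C was lost without R6/2 replicate 1 or 3 or wild-type replicate 1, 2, 3 or 4, with changes from -0.34 to -0.29 and adjusted p from 0.0502 to 0.0961. With the Actb covariate Arntl was at -0.38 ± 0.09 (adjusted p = 0.0501).

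In Mith 0 of the 16 probe sets were called by limma, where 0.0221% of all probe sets were (0.0177% lower and 0.00442% higher), and 2 had an unadjusted p under 0.05, where 9.80% of all probe sets had. These were Per1, given above, and Nr1d2 1416959_at, at -0.25 ± 0.11 (adjusted p = 0.482). The brighter Nr1d2 probe set, 1416958_at, had the opposite sign in Mith, at 0.17 ± 0.17 (adjusted p = 0.830). On the Per1 probe set alone the genotypes did not overlap in Mith, where 6.34% of all probe sets were lower and 6.61% higher without overlap. Dbp 1418174_at was at -0.16 (95% interval -0.42 to 0.10) and Arntl at 0.00 (95% interval -0.18 to 0.19).

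The difference between the cohorts' genotype effects was tested as an interaction, M.C minus Mith. None of the 16 probe sets passed in limma, nor did any of all probe sets (0%), and 4 of the 16 had an unadjusted p under 0.05, where 9.78% of all probe sets had. They were Arntl at -0.33 ± 0.12 (adjusted p = 0.392), Dbp 1418174_at at -0.39 ± 0.17 (adjusted p = 0.473), Dbp 1438211_s_at at -0.85 ± 0.34 (adjusted p = 0.449) and Clock 1418659_at at -0.38 ± 0.18 (adjusted p = 0.502). The calls of Dbp and Arntl in M.C are therefore not shown to differ from Mith. For Per1 the interaction was -0.01 (95% interval -0.25 to 0.23).

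**Figure D3:**
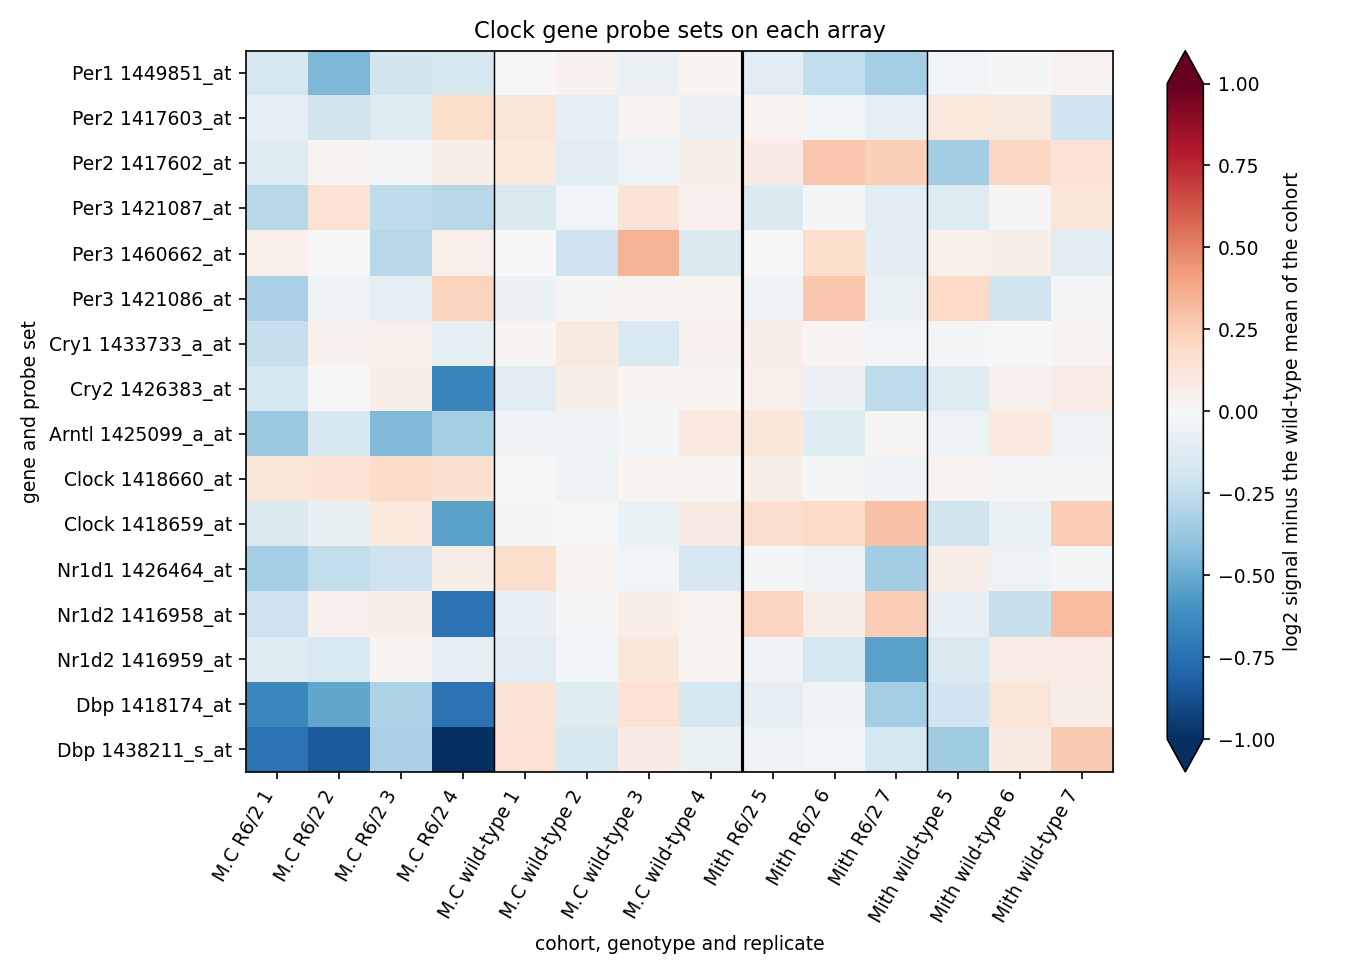
Each of the 16 probe sets on each of the 14 arrays, as the log2 signal minus the wild-type mean of the same cohort. Blue is lower and red higher, each column is an array with R6/2 left of wild-type in each cohort, and the colour scale stops at 1 in either direction, which Dbp 1438211_s_at passes in R6/2 replicate 4 with -1.83. The Per1 row is blue in all 7 R6/2 arrays and the Dbp rows are darkest in R6/2 of M.C.

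The cohort comparison, M.C minus Mith with genotype as a term, asked how far clock transcripts differed between the arrays of the 2 title prefixes. Of the 16 probe sets 7 were called, where 32.3% of all probe sets were, so the share is not far from the background. They were 4 higher and 3 lower, where 15.3% and 17% of all probe sets were. Arntl and Per2 were higher in M.C on all their probe sets, and Nr1d2, Per3 and Dbp were lower on 1 probe set each. Arntl was higher by 0.40 ± 0.07 (adjusted p = 4.22e-04), with means of 7.69 ± 0.20 in M.C (SD, n = 8) and 7.30 ± 0.09 in Mith (SD, n = 6), and every M.C array lay above every Mith array. Such a separation upward was seen for 4.02% of all probe sets and downward for 4.96%.

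Per2 was higher by 0.29 ± 0.07 on 1417603_at (adjusted p = 0.00341), again without overlap, and by 0.25 ± 0.08 on 1417602_at (adjusted p = 0.0250). Clock was higher by 0.13 ± 0.05 on 1418660_at (adjusted p = 0.0422) and at -0.22 ± 0.10 on 1418659_at (adjusted p = 0.102), so its probe sets disagree in sign. Nr1d2 was at -0.52 ± 0.12 on 1416958_at (adjusted p = 0.00290), with means of 8.55 ± 0.27 in M.C and 9.07 ± 0.21 in Mith, and every M.C array lay below every Mith array. Its other probe set gave -0.05 ± 0.07 (adjusted p = 0.675).

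Per3 was at -0.32 ± 0.08 on 1421086_at (adjusted p = 0.00727), while its other probe sets gave -0.12 and -0.04. Dbp was at -0.61 ± 0.19 on 1438211_s_at (adjusted p = 0.0242) and at -0.11 ± 0.09 on 1418174_at (adjusted p = 0.401). Per1, Cry1, Cry2 and Nr1d1 were not called, at 0.09, -0.14, 0.17 and 0.10. With each array left out in turn, the Clock call held only without wild-type replicate 2, 5 or 6, and the other 11 fits gave changes from 0.11 to 0.13. The Dbp call was lost without R6/2 replicate 5, 6 or 7 (-0.57 to -0.54), and that of Per2 1417602_at without R6/2 replicate 5 (0.24, adjusted p = 0.0529). The calls of Arntl, Per2 1417603_at, Per3 1421086_at and Nr1d2 1416958_at were kept in all 14 fits.

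Markers of other tissue and cells also differed between the cohorts, where 31.1% of all genes were called and the median of all genes was 0.02. All 9 measured oligodendrocyte genes were called lower in M.C than in Mith, with a median of -0.81, and their mean deviation ran from -0.61 to 0.18 in M.C and from -0.01 to 0.66 in Mith. Of 10 thalamic genes 7 were called lower, with a median of -0.76. Of 9 genes of the suprachiasmatic nucleus and hypothalamus 4 were called lower, among them Avp at -1.11 and Oxt at -0.80, and 1 was called higher, with a list median of -0.11. Of the 12 glucocorticoid-responsive genes 3 were called lower, a share below that of all genes, with a list median of -0.04. Avp and Oxt, the vasopressin and oxytocin precursors, were named after their values were seen. Dissection, hour of the day, array handling and study cannot be told apart in this comparison.

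**Figure D4:**
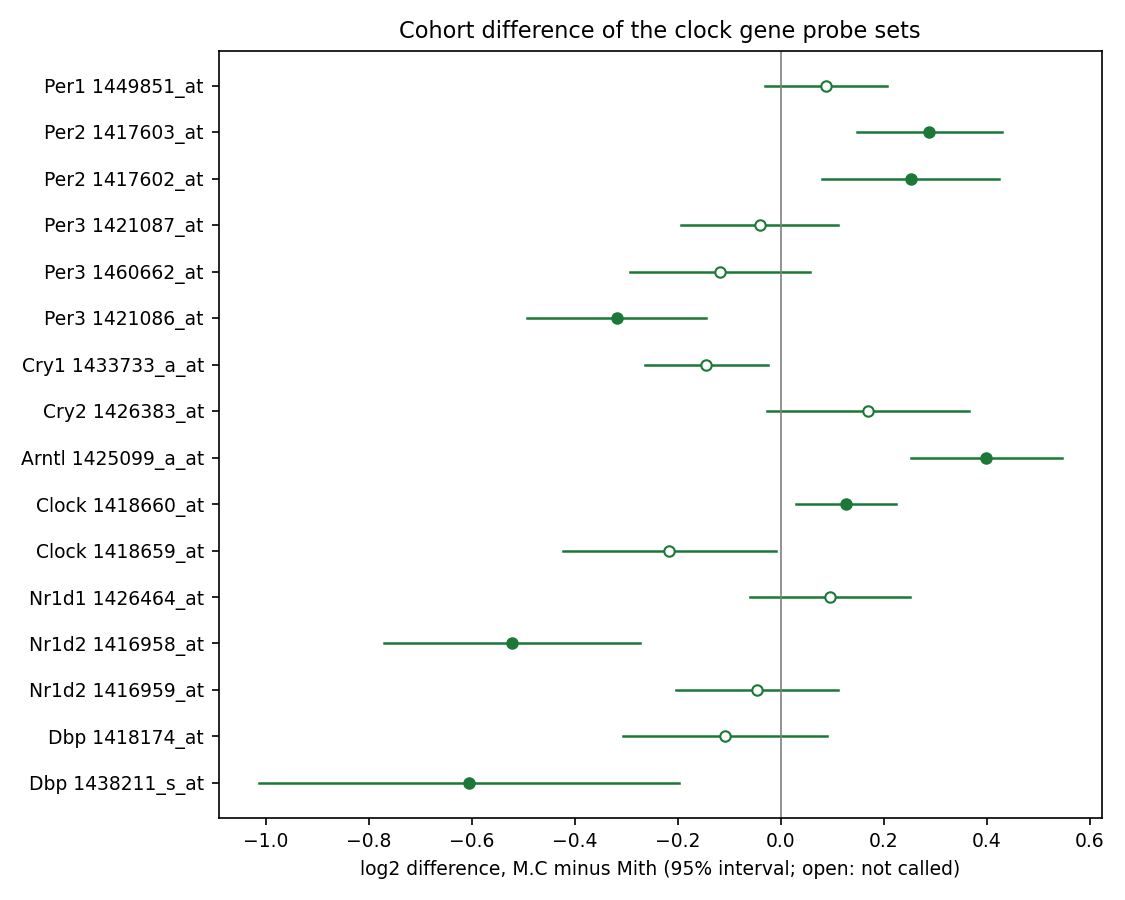
Log2 difference of each of the 16 probe sets between cohorts, M.C minus Mith, with genotype as a term. Bars are 95% intervals and filled symbols passed the adjusted threshold. Arntl, both probe sets of Per2 and Clock 1418660_at lie to the right of 0, and Per3 1421086_at, Nr1d2 1416958_at and Dbp 1438211_s_at to the left.

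Further genes of the clock were described from a list, of which 16 were analysed here. Over both cohorts 2 of the 16 were lower in R6/2 and 0 were higher, where 2.53% of all genes were called, and the list's median was -0.03 against 0.01 over all genes. Npas2, a relative of Clock that can take its place beside ARNTL and is abundant in forebrain, was at 80.8% of wild-type. Its log2 signals in M.C were 6.74, 6.90, 6.91 and 7.19 in R6/2, against 7.41, 7.35, 7.26 and 7.22 in wild-type. In Mith they were 6.64, 6.72 and 6.47 in R6/2, against 6.65, 6.97 and 6.86 in wild-type. The genotypes were apart in M.C and overlapped in Mith, where only wild-type replicate 5 lay below an R6/2 array. The Npas2 change was -0.31 ± 0.07 (adjusted p = 0.0352), with -0.64 on its other probe set. Leaving out wild-type replicate 5 gave -0.35 ± 0.07 (adjusted p = 0.0114), in a fit that called 3.88% of all probe sets. That array was picked by its low value, so a larger change without it was fixed in advance. Leaving out R6/2 replicate 4 gave -0.35 ± 0.07 as well (adjusted p = 0.0126).

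Bhlhe40 (DEC1), a repressor that competes for E-boxes and is also induced by activity, was at 76.8% of wild-type. Its log2 signals in M.C were 7.33, 7.75, 7.37 and 7.07 in R6/2, against 7.56, 7.72, 7.80 and 8.04 in wild-type. In Mith they were 7.69, 7.75 and 7.71 in R6/2, against 8.06, 7.88 and 8.29 in wild-type. The genotypes overlapped in M.C and were apart in Mith, and the change was -0.38 ± 0.09 (adjusted p = 0.0412). With the Actb covariate Npas2 was at -0.18 ± 0.08 (adjusted p = 0.422) and Bhlhe40 at -0.49 ± 0.12 (adjusted p = 0.0982), and without the cohort term their adjusted p was 0.398 and 0.246. The call of Npas2 over both cohorts was lost without R6/2 replicate 1, 2, 3 or 7 or wild-type replicate 1, 2, 3, 4, 6 or 7 (-0.32 to -0.27). That of Bhlhe40 was lost without R6/2 replicate 1, 3, 5, 6 or 7 or wild-type replicate 2, 3, 4 or 7 (-0.39 to -0.33).

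Hlf and Tef, the relatives of Dbp that bind the same D-box, were looked up after values had been seen and did not pass over both cohorts. Hlf was at -0.26 ± 0.07 (adjusted p = 0.0597), with -0.47 on its other probe set. It passed among brighter probe sets alone (adjusted p = 0.0465) and with array weights (adjusted p = 0.0196). Those settings called 5.07% and 5.89% of the probe sets tested. In 18 of 22 alternatives Hlf stayed uncalled, with adjusted p up to 0.300. Tef was at -0.15 ± 0.07 (adjusted p = 0.292), with -0.39 and 0.0066 on its 2 other probe sets. Nfil3, which represses at D-boxes, was at -0.03 (adjusted p = 0.851). In M.C 1 gene of the list was called, Npas2 (-0.38 ± 0.10, adjusted p = 0.0434), where 2.96% of all genes were, and in Mith and in the interaction 0 were, against 0.0161% and 0%. Between the cohorts 3 were lower and 8 higher in M.C, where 31.1% of all genes were called. With the smallest p-values these were Rora (-1.31), Bhlhe40 (-0.32) and Csnk1d (-0.35), lower, and Nono (0.49), Npas2 (0.41) and Arntl2 (0.27), higher. Other probe sets of the same genes gave -0.27 and -0.06 for Nono, 0.02 for Npas2, from -0.28 to 0.27 for Csnk1d and from -0.99 to -0.0021 for Rora, so the probe sets of Nono and of Csnk1d disagree in sign. Rora, a receptor that activates Arntl, is also in the list of thalamic genes. The Npas2 call in M.C was lost without R6/2 replicate 1, 2, 3 or 5 or wild-type replicate 1, 2, 3, 4 or 7 (-0.41 to -0.31), and with the Actb covariate it was at -0.25 (adjusted p = 0.254). The Csnk1d call was kept only without R6/2 replicate 4 or 7 or wild-type replicate 1 or 6, with -0.36 to -0.28 in the other fits, and was at -0.16 (adjusted p = 0.464) after quantile normalization. The Bhlhe40 call between cohorts was lost without wild-type replicate 7 (-0.27, adjusted p = 0.0501).

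**Figure D5:**
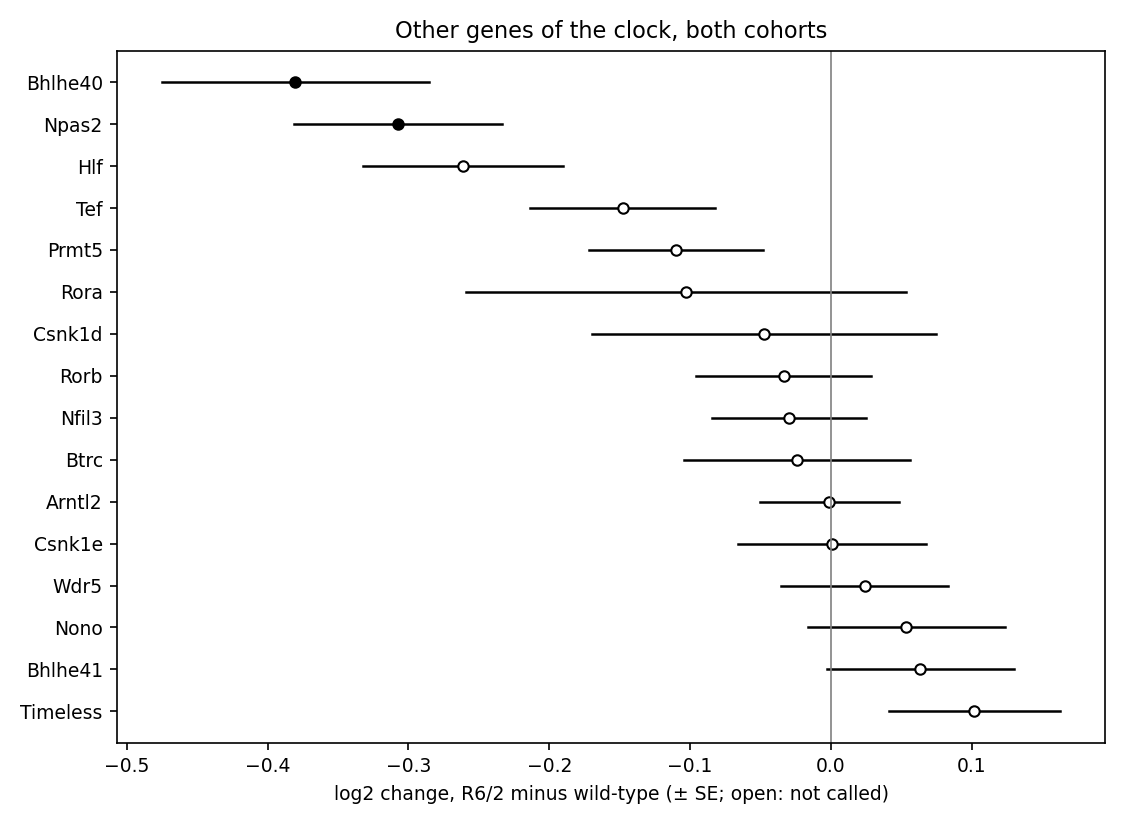
Log2 change over both cohorts, R6/2 minus wild-type, of the 16 further clock genes with a named probe set, ordered by the change. Bars are ± SE over 7 R6/2 and 7 wild-type arrays and filled symbols passed the adjusted threshold, which only Bhlhe40 (-0.38) and Npas2 (-0.31) did.

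Within a group of arrays the clock genes were compared by their deviations from the mean of each genotype in each cohort. Of the 45 pairs of the 10 genes, each read by 1 probe set, 0 passed a Benjamini-Hochberg adjusted exact permutation test within the 4 groups, and 3 had an unadjusted exact p under 0.05 for Pearson's r. Per2 and Nr1d2 gave the smallest of these, Pearson r = -0.85 (exact p = 0.0117, adjusted p = 0.403) and Spearman rho = -0.77 (exact p = 0.0131, adjusted p = 0.295) over 14 arrays. Pearson's r was -0.86 within M.C and -0.86 within Mith, and without R6/2 replicate 4 and wild-type replicate 7, the arrays farthest out in Per2, it was -0.68. Cry1 and Cry2 gave the smallest exact p by rank, rho = 0.80 (exact p = 0.00699, adjusted p = 0.295), with Pearson r = 0.44 (exact p = 0.357, adjusted p = 0.835), 0.39 within M.C, 0.94 within Mith and 0.80 without R6/2 replicate 1 and wild-type replicate 3. Per1 and Dbp, the 2 genes called over both cohorts, gave r = 0.00 (exact p = 0.992, adjusted p = 0.992) and rho = -0.02 (exact p = 0.941, adjusted p = 0.941), with -0.29 within M.C and 0.57 within Mith, and -0.18 without R6/2 replicates 2 and 7.

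By the same deviations over 14 arrays, the genes most like Per1 among 7101 brighter genes were App, the amyloid precursor protein (r = 0.89), Shf (r = 0.88) and Gria3, an AMPA receptor subunit (r = 0.88). Those most like Dbp were Rundc3a (r = 0.88), Rin1, a regulator of Ras signalling (r = 0.86), and Strn4 (r = 0.86). These are the highest of many values over the same arrays and are given as a description.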

How the data were processed

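Total RNA of mouse striatum was measured on 14 Affymetrix arrays, grouped by the genotype in the labels and by the start of the titles. The authors' deposited table holds log2 signals of 22690 probe sets, a unit taken from the range of 2.96 to 14.5. The authors' summarisation and normalization are not given in the sources used here. Tests left out 64 control probe sets. Deposited medians ran from 7.07 to 7.17, a span of 0.108 above a limit of 0.1, so arrays were centred on a common median. The highest median was that of R6/2 replicate 4, and the next highest was 7.12, in R6/2 replicate 1. The span thus passed the limit only through R6/2 replicate 4. Symbols came from the platform annotation, and 20351 of 20380 single symbols matched a RefSeq gene ID.

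Tests used limma 3.58.1 in R 4.3.3, two-sided and moderated, with Benjamini-Hochberg adjustment over 22626 probe sets. Genotype was fitted with cohort as a term, and the genotype changes within each cohort and their interaction came from a fit of 1 mean per genotype and cohort. The tests were run on simulated data with known changes. A member is represented by its brightest probe set, passing over cross-hybridising types where it has another. Of the further clock genes, up to 3 called per direction with the smallest p are named. The genes, lists and tests were chosen with earlier results of these data known. Alternatives covered scaling, dim probe sets, variance model, array weights, the Actb covariate, no cohort term, a threshold of 0.01 and each array left out.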

Additional observations from a re-analysis of the deposited data

Results flagged for a closer look

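In 6 of 64 groups of 4 to 7 arrays 1 array of a clock probe set lay farther from the rest than Dixon's 95% limit. Chance gives about 1 in 20 for independent groups of like arrays. These groups share arrays, and the groups of 7 join both cohorts with their difference left in, so that rate is no measure for the count. They fall on 5 arrays and 5 genes. Per1 read 8.51 in R6/2 replicate 2, with the nearest M.C R6/2 array at 8.78. Per3 1421087_at read 8.02 in the same array, with the nearest at 7.62, so that array was low in Per1 and high in Per3. Per3 1460662_at read 6.44 in R6/2 replicate 3, with the nearest M.C R6/2 array at 6.72. Arntl read 7.96 in wild-type replicate 4, with the nearest M.C wild-type array at 7.84. Per2 1417602_at read 5.47 in wild-type replicate 5, with the nearest of 7 wild-type arrays at 5.96. Cry1 read 4.33 in wild-type replicate 3, with the nearest of 7 wild-type arrays at 4.50. The Per1 change in M.C was -0.24 with R6/2 replicate 2 and -0.17 without it.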

How the results depend on the processing

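The count of 2 called probe sets over both cohorts became 1 with the values as deposited and after quantile normalization, 4 with array weights, and 0 with the Actb covariate, at an adjusted p under 0.01 and without the cohort term. It ran from 0 to 3 with 1 array left out, and was 0 without R6/2 replicate 1, 2 or 7 or wild-type replicate 1, 2, 3, 4 or 7. With array weights Arntl (-0.25, adjusted p = 0.0334) and Dbp 1438211_s_at (-0.46, adjusted p = 0.0496) were called as well, where 5.89% of all probe sets were, and with the Actb covariate 0.248% were. In M.C the count of 3 became 1 at 0.01 and ranged over 1 to 3 among the fits lacking 1 array, being 1 without R6/2 replicate 1 or wild-type replicate 1, 3 or 4. Between cohorts the count of 7 became 4 among brighter probe sets and at 0.01, and ran from 4 to 8, with 4 without R6/2 replicate 5. In Mith and in the interaction it stayed 0 in every setting run. Apart from probe sets left out of a fit, the cause of these moves was not tested.

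Further calls of members were lost in M.C for Arntl after quantile normalization (adjusted p = 0.0519) and for Dbp 1438211_s_at with trended variances (0.0559) and in a fit of M.C arrays alone (0.0737), and between cohorts for Clock 1418660_at with trended variances (0.0556) and the Actb covariate (0.0595) and for Per2 1417602_at with that covariate (0.0524). Calls were gained for Per1 in M.C with array weights (0.0464) and between cohorts for Cry1 after quantile normalization (0.0476) and with trended variances (0.0457) and for Cry2 with array weights (0.0212). No called change turned its sign in any setting run. Changes near 0 that were not called did turn. Over both cohorts, with the values as deposited, Per3 gave 0.0029 (1460662_at) and 0.0074 (1421086_at). With the Actb covariate Per3 1421086_at gave 0.055 and Clock 1418659_at -0.029, which gave -0.0055 after quantile normalization. The mean of both Per2 probe sets gave 0.017. In M.C, Per2 1417602_at gave 0.018 as deposited and 0.047 with the Actb covariate, which put Per3 1421086_at at 0.0060 and Nr1d2 1416959_at at 0.010. In Mith, Clock 1418660_at gave 5.4e-04 as deposited and 0.0017 with the Actb covariate, which put Per3 1460662_at at -0.014 and Arntl at -0.037, and Arntl gave -0.017 with array weights.

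With 1 array left out, the changes over both cohorts ran from -5.3e-05 to 0.11 for Per2 1417602_at, from -0.050 to 0.047 for Per3 1460662_at and from -0.058 to 0.040 for Per3 1421086_at. They ran from -0.049 to 0.0083 for Cry1, from -0.054 to 0.082 for Clock 1418659_at and from -0.11 to 0.062 for Nr1d2 1416958_at. In M.C they ran from -0.051 to 0.025 for Per2 1417602_at, from -0.11 to 0.072 for Per3 1460662_at and from -0.16 to 0.025 for Per3 1421086_at. In Mith they ran from -0.12 to 0.027 for Per2 1417603_at, from -0.058 to 0.084 for Per3 1460662_at, from -0.050 to 0.16 for Per3 1421086_at and from -0.0029 to 0.043 for Cry1. Still in Mith, they ran from -0.053 to 0.064 for Arntl, from -0.032 to 0.020 for Clock 1418660_at, from -0.26 to 0.047 for Dbp 1438211_s_at and from -0.13 to 0.024 for Tef.

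No paired analysis was possible because the replicate numbers follow accession order and pair no arrays. The dim probe sets of Cry1 and Per3 1421086_at limit what can be read for these genes.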
